A study of Drosophila melanogaster with 4 samples.

Results

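Tsp2A, crim and Gli encode membrane proteins of the septate junctions, the belts that seal the space between neighbouring epithelial cells in insects. The set described here is each transcript in the deposited table that the annotation assigns to one of these 3 genes, whatever its level or direction, and holds 4 of the 1761 listed transcripts: 1 of Tsp2A, 1 of crim and 2 of Gli. RNA was sequenced from dissected intestines of female *Drosophila melanogaster* aged 3 to 5 days, with 30 intestines pooled in each sample. The mutant group (2 samples) carried the kdm5 alleles k6801 and 10424, and the control group (2 samples) was the white-eyed laboratory strain w1118. The labels name no other allele, transgene or treatment in either group and do not say whether the strains share a genetic background. Kdm5 encodes an enzyme that takes methyl groups off histone H3, and the study's design asks which genes differ between the genotypes in the intestine. The labels do not tell whether the samples of a genotype had separate parents or collection days, so the variation among them may be technical. The p-values below rest on that variation, and those of limma also on a variance taken from all listed transcripts.

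In the fly midgut and Malpighian tubules the seal is a smooth septate junction, built by Snakeskin (Ssk), Mesh, Hoka and the tetraspanin Tsp2A, which depend on one another to reach the cell border. Ectodermal epithelia such as trachea and hindgut, and also glia, have pleated septate junctions instead. The Ly6 protein encoded by crim (crimpled) is known from the assembly of pleated junctions in the trachea. Gliotactin, the product of Gli, is a transmembrane protein related to cholinesterases that sits where 3 cells meet, and it has also been studied at the corners of adult enterocytes. Of these genes, Tsp2A is therefore the one that belongs to the smooth septate junction in the strict sense.

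The values were TPM, a level per transcript length and per library, so levels of different genes can be compared, and their sequencing depth is unknown. The table is a list selected on the comparison itself, since each of its 1761 transcripts had p under 0.05 in the authors' deposited table. The listed transcripts held 15.6% and 15.3% of a library total taken as 1000000 TPM in the mutant libraries, and 23.9% and 23.5% in the w1118 libraries. Of Kdm5, the mutated gene, 1 transcript was listed, at 0.0768 and 0.0361 TPM in the mutant and at 1.43 and 0.639 TPM in w1118. The labels give no direction for its RNA. It was itself listed on this comparison, and other Kdm5 transcripts were not analysed here. The tissue markers nub, Myo31DF and Myo61F of enterocytes, and Tk, AstA and AstC of enteroendocrine cells, were among the listed genes.

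The listed transcripts of the genes in question were Tsp2A-RB (FBtr0303284), crim-RA (FBtr0076123), Gli-RD (FBtr0080768) and Gli-RF (FBtr0343721). Positions are 1-based and from the BDGP6.54 annotation of Ensembl release 115, while no source used here names the authors' build. Tsp2A-RB lies on the X chromosome from 1347085 to 1348143 on the plus strand. It shares its 732 coding bases with Tsp2A-RA, the other of 2 annotated Tsp2A transcripts, and differs in a first exon of 35 untranslated bases that no other Tsp2A transcript holds. The gene stands inside MTPAP, which runs the other way and shares 0 exonic bases with it. The crim gene, on 3L from 11710507 to 11711386 on the minus strand, has 1 annotated transcript with 3 exons and 474 coding bases. Its 3′ end overlaps the exons of Ccdc56 and mtTFB1 on the opposite strand by 64 bases, and no source used here says whether the counting used strand.

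Gli lies on 2L from 15756002 to 15762758 on the minus strand and has 5 annotated transcripts, all with the same 2868 coding bases. Gli-RD and Gli-RF begin at the same base and differ in the first exon, which is untranslated. In Gli-RD this exon is 70 bases long (15762689 to 15762758), and in Gli-RF it reads on to a length of 563 bases (15762196 to 15762758). Within the Gli annotation, 160 of the bases of Gli-RF occur in no other transcript, and 0 of those of Gli-RD. The division of Gli reads between transcripts therefore rests on a small part of the 4468 and 3975 exonic bases of Gli-RF and Gli-RD.

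**Figure D1:**
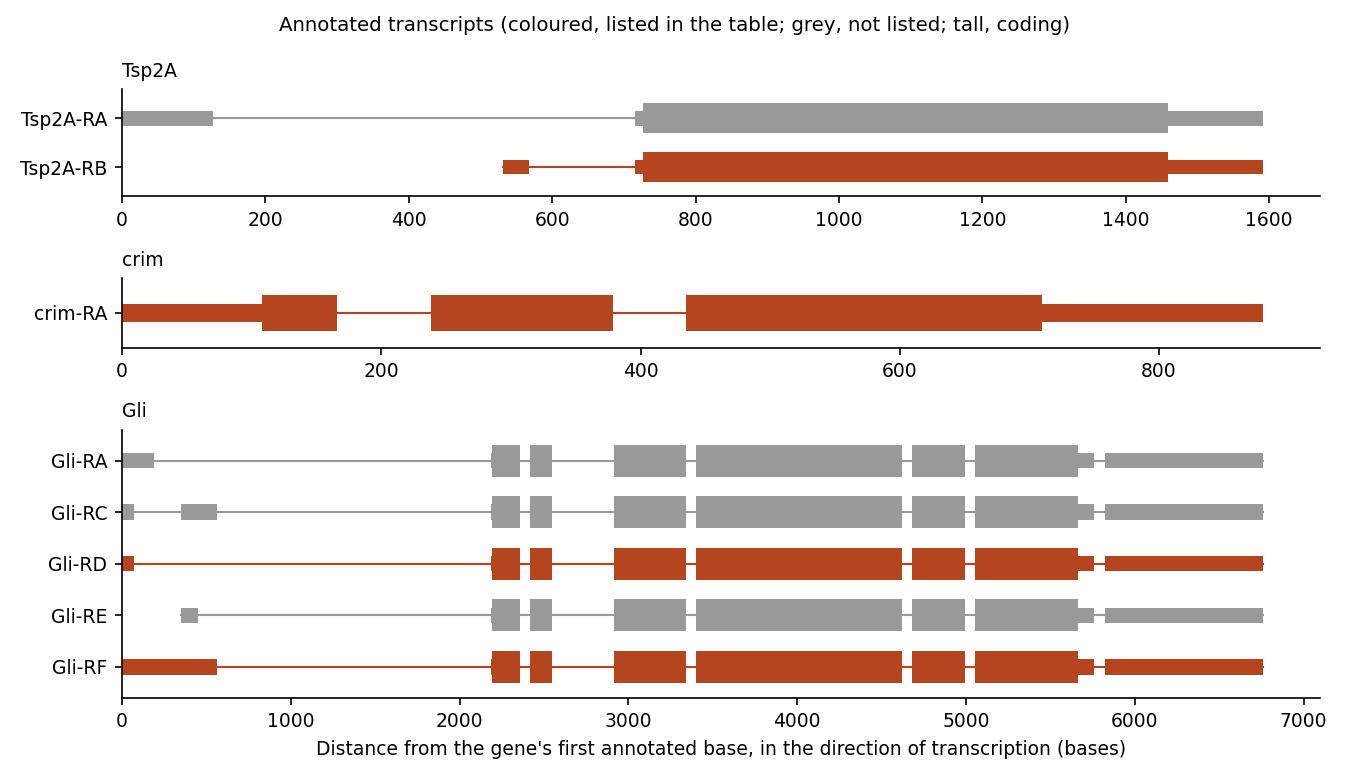
Annotated transcripts of Tsp2A, crim and Gli, drawn from the first annotated base of each gene in the direction of transcription (bases); tall boxes are coding, low boxes untranslated, and colour marks the transcripts in the table. Gli-RD and Gli-RF differ in a first exon of 70 against 563 bases, and the 2 Tsp2A transcripts in their first exon.

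The mutant intestine had more of the listed Tsp2A, crim and main Gli transcripts than w1118, by 2.27-, 2.48- and 2.93-fold in the means, and less of the minor Gli transcript. Limma, run on log2(TPM + 1) over the table with Benjamini-Hochberg adjustment, called 3 of the 4 higher at adjusted p < 0.05 and called 0 lower. The same call was made in the higher direction for 53.7% of the listed transcripts, in the lower direction for 23.4%, and in either direction for 77.1%, so a call is usual in this list. The SEs, intervals and p-values of limma draw on the variance of all listed transcripts, which were selected on this comparison. They do not rest on the libraries of the one transcript alone. With each of the 35694 annotated transcripts outside transposable elements counted as a test, called annotation-wide here, 0 of the 4 passed, against 30.7% of the listed transcripts (22.0% higher and 8.69% lower), while all 4 had an unadjusted limma p under 0.05, as did 81.9% of the listed transcripts. The words rose and fell are kept below for transcripts that passed the annotation-wide test. Both mutant libraries lay above both w1118 libraries for 3 of the 4 and below them for the other, against 58.8% and 35.9% of the listed transcripts (94.8% together). The median log2 change of the 4 was 1.07, and that of all listed transcripts 0.86. Over the table, 946 transcripts were called higher and 412 lower. With TPM rescaled to the same listed total these were 1031 and 166, since that scaling moved the median log2 change of all listed transcripts from 0.86 to 1.39.

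Tsp2A-RB, the transcript of the smooth septate junction tetraspanin, stood at 19.1 and 37.2 TPM in mutant replicates 1 and 2 and at 15.2 and 9.62 TPM in w1118 replicates 1 and 2. Mutant replicate 2 was the high library, and mutant replicate 1 was 1.26-fold above the higher w1118 library. Limma gave a log2 change of 1.08 ± 0.36 (SE; n = 2 per group; 95% interval 0.32 to 1.84), and its adjusted p was 0.0143 among the listed transcripts and 0.291 annotation-wide. Leaving out mutant replicate 2 gave a log2 change of 0.62, with adjusted p = 0.188 among the listed transcripts, and leaving out w1118 replicate 2 gave 0.77 (adjusted p = 0.195). The level of Tsp2A-RA was not analysed here, and the total for the gene is unknown. MTPAP, the gene around Tsp2A, encodes a mitochondrial poly(A) polymerase. Its listed transcript (FBtr0070237) was at 5.02 and 10.1 TPM in the mutant and 2.11 and 1.50 TPM in w1118. It was thus also highest in mutant replicate 2, which is usual in this list. Of 802 listed transcripts higher in both mutant libraries, with a mean of at least 5 TPM, 666 were higher in replicate 2 than in replicate 1. The part that reads of MTPAP have in the Tsp2A value was not tested.

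The crim transcript was at 6.96 and 16.1 TPM in mutant replicates 1 and 2 and at 5.14 and 4.16 TPM in w1118. Mutant replicate 2 again lay apart, and the other mutant library was 1.35-fold above the nearest w1118 library. As crim has 1 annotated transcript, this is the one gene of the set whose listed level is that of the gene as annotated. Limma gave a log2 change of 1.05 ± 0.41 (SE; n = 2 per group; 95% interval 0.19 to 1.91), and its adjusted p was 0.0291 among the listed transcripts and 0.590 annotation-wide. Each of mutant replicate 2, w1118 replicate 1 and w1118 replicate 2, when left out, ended the call over the listed transcripts (adjusted p = 0.155, 0.183 and 0.249). Without mutant replicate 2 the ratio of means was 1.50 in place of 2.48. With the replicate number as a block the adjusted p was 0.0911.

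Gli-RD, the more abundant listed transcript of the tricellular junction protein, was at 7.20 and 15.9 TPM in mutant replicates 1 and 2 and at 3.77 and 4.09 TPM in w1118. The w1118 libraries were close to each other, and the lower mutant library was 1.76-fold above the higher of them. Limma gave a log2 change of 1.25 ± 0.41 (SE; n = 2 per group; 95% interval 0.40 to 2.11), and its adjusted p was 0.0123 among the listed transcripts and 0.249 annotation-wide. Leaving out mutant replicate 2, w1118 replicate 1 or w1118 replicate 2 ended the call over the listed transcripts (adjusted p = 0.0706, 0.172 and 0.134). The ratio of means was 1.83 without mutant replicate 2.

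Gli-RF went the other way, at 0.145 and 0.613 TPM in mutant replicates 1 and 2 and at 1.20 and 0.890 TPM in w1118. Both mutant libraries were below both w1118 libraries, and the nearest pair differed 1.45-fold. Limma gave a log2 change of -0.58 ± 0.27 (SE; n = 2 per group; 95% interval -1.15 to -0.02), and its adjusted p was 0.0551 among the listed transcripts and 1 annotation-wide. At levels near 1 TPM the added pseudocount of 1 understates a change, and with a pseudocount of 0.1 the log2 change was -1.44, past the threshold among the listed transcripts (adjusted p = 0.0408). With a pseudocount of 0.01 it was -1.75 and not called (adjusted p = 0.053). The w1118 mean was 2.75-fold above the mutant mean, which became 7.19-fold without mutant replicate 2 and 1.70-fold without mutant replicate 1. Over the listed transcripts, Gli-RF passed at adjusted p = 0.0421 without mutant replicate 2 and at 0.0202 without w1118 replicate 2. It did not pass without mutant replicate 1 (adjusted p = 0.162) or without w1118 replicate 1 (0.137).

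**Figure D2:**
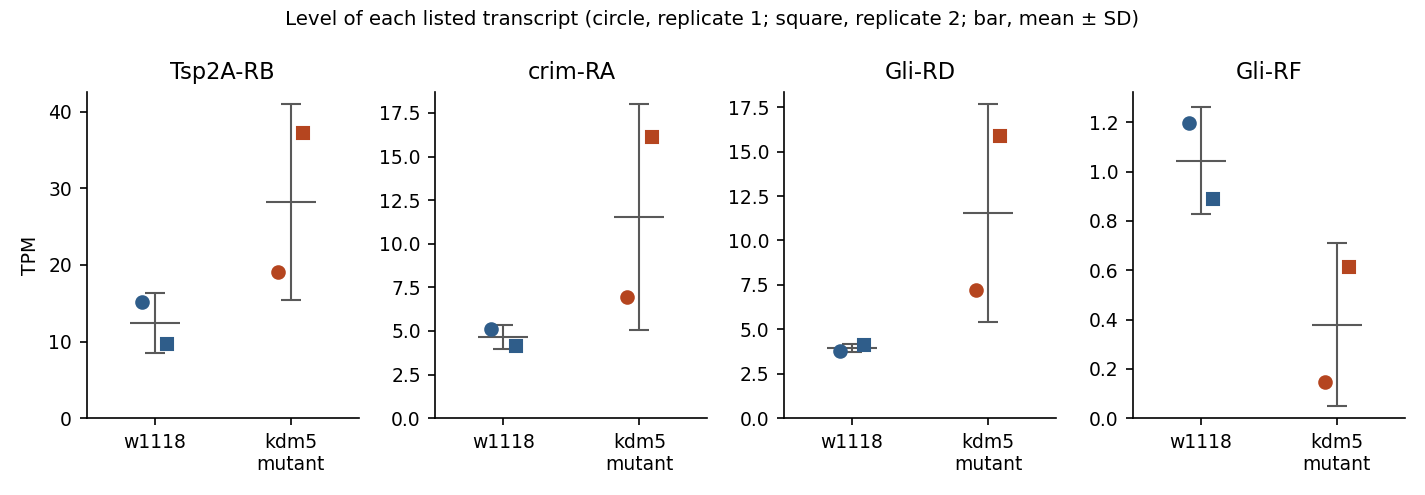
TPM of Tsp2A-RB, crim-RA, Gli-RD and Gli-RF in each library, with the mean ± SD of the 2 libraries of a genotype; each panel has its own axis from 0. The first 3 transcripts are higher in both mutant libraries and highest in replicate 2 (37.2, 16.1 and 15.9 TPM), while Gli-RF is lower in both.

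The make-up of listed Gli RNA differed between the genotypes along with its level. Gli-RF made up 24.1% and 17.9% of listed Gli TPM in w1118 replicates 1 and 2, and 1.98% and 3.72% in mutant replicates 1 and 2. The means were 21.0% ± 4.41 and 2.85% ± 1.23 (SD, n = 2), and the groups did not overlap. With Gli-RD higher and Gli-RF lower in both mutant libraries, the share had to separate the groups. Its permutation p below then had to be the smallest possible. The share restates these 2 transcripts, each listed for its p-value on this comparison, and is no further test. The difference, -18.1 percentage points, ran from -21.2 to -15.0 when 1 library was left out. An exact two-sided permutation test over the libraries gave p = 0.333, the smallest that 2 against 2 allows. The summed TPM of both transcripts was 4.97 and 4.98 in w1118 and 7.35 and 16.5 in the mutant, 2.39-fold higher in the mean (exact two-sided permutation p = 0.333) and 1.48-fold without mutant replicate 2. These shares are of the listed transcripts, as the levels of Gli-RA, Gli-RC and Gli-RE were not analysed here.

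**Figure D3:**
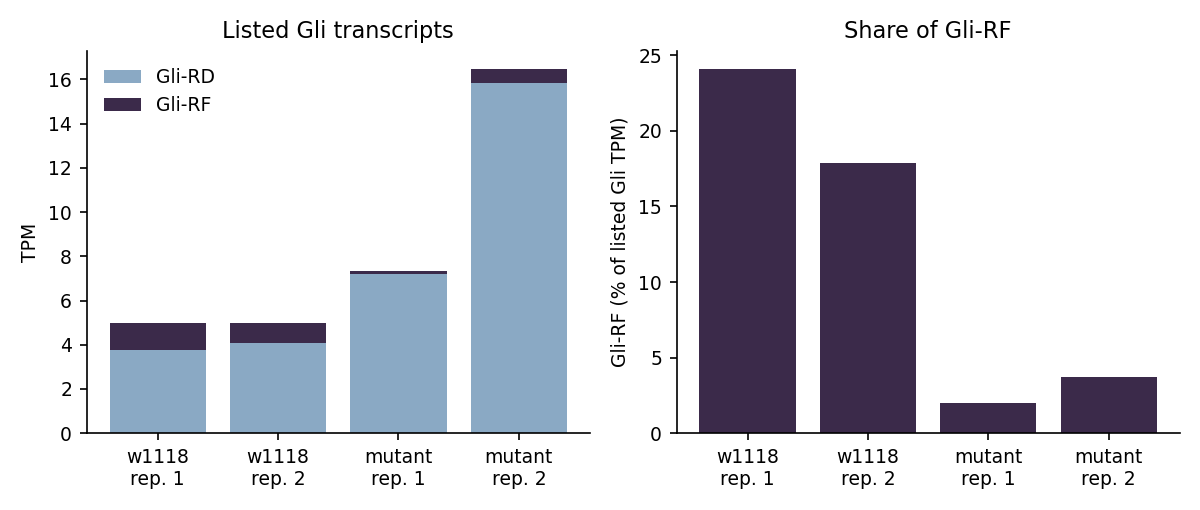
Listed Gli transcripts in each library, as stacked TPM (left) and as the share of Gli-RF in their sum (right, percent). The sum is higher in the mutant libraries, and the share of Gli-RF is 17.9% to 24.1% in w1118 and 1.98% to 3.72% in the mutant.

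By level, Tsp2A-RB stood first in both genotypes, at 12.4 ± 3.95 TPM in w1118 and 28.2 ± 12.8 TPM in the mutant (SD, n = 2). In w1118 crim-RA (4.65 ± 0.693 TPM) and Gli-RD (3.93 ± 0.224 TPM) followed, and their means differed by less than 1 SD of crim-RA plus that of Gli-RD. In the mutant both of these averaged 11.5 TPM, with SDs of 6.47 and 6.12. Gli-RF was the lowest in both genotypes, at 1.04 ± 0.218 and 0.379 ± 0.331 TPM.

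The mutant libraries differed from each other more for these transcripts than for most. The level in mutant replicate 2 was 1.94 times that in replicate 1 for Tsp2A-RB, 2.31 times for crim-RA and 2.20 times for Gli-RD. Among the 802 listed transcripts that were higher in both mutant libraries and averaged at least 5 TPM, the median of this ratio was 1.33, with quartiles of 1.10 and 1.61. Of these 802, 11.7%, 5.2% and 6.7% had a ratio at least as high as those of Tsp2A-RB, crim-RA and Gli-RD. The median ratio of w1118 replicate 2 to replicate 1 in the same transcripts was 0.973, and Tsp2A-RB, crim-RA and Gli-RD had 0.633, 0.809 and 1.08. As Tsp2A-RB, crim-RA and Gli-RD were each high in mutant replicate 2, they are not independent results.

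TPM is a share of a fixed total, so a large change in some transcripts, listed or not, bears on the values of all others. The listed share of the assumed total was lower in the mutant. The transcripts outside the list held 84.4% and 84.7% of the assumed total in the mutant and 76.1% and 76.5% in w1118. With TPM scaled to that part, a setting chosen after seeing the data, the log2 changes were 0.94 for Tsp2A-RB, 0.92 for crim-RA and 1.13 for Gli-RD, each still called by limma over the listed transcripts (adjusted p = 0.0279, 0.048 and 0.0215). Gli-RF was then at -0.64 and was called as well (adjusted p = 0.04). With TPM rescaled to the same listed total, Tsp2A-RB, crim-RA and Gli-RD had log2 changes of 1.66, 1.59 and 1.78 (limma adjusted p = 0.000486, 0.0021 and 0.000797). Gli-RF was at -0.36 and was not called (adjusted p = 0.288). That total is of transcripts selected on this comparison and was lower in the mutant, so this scaling raises every log2 change. The median of all listed transcripts went from 0.86 to 1.39 with it, and to 0.74 with scaling to the part outside the list. The larger changes and smaller p-values are therefore no added evidence.

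**Figure D4:**
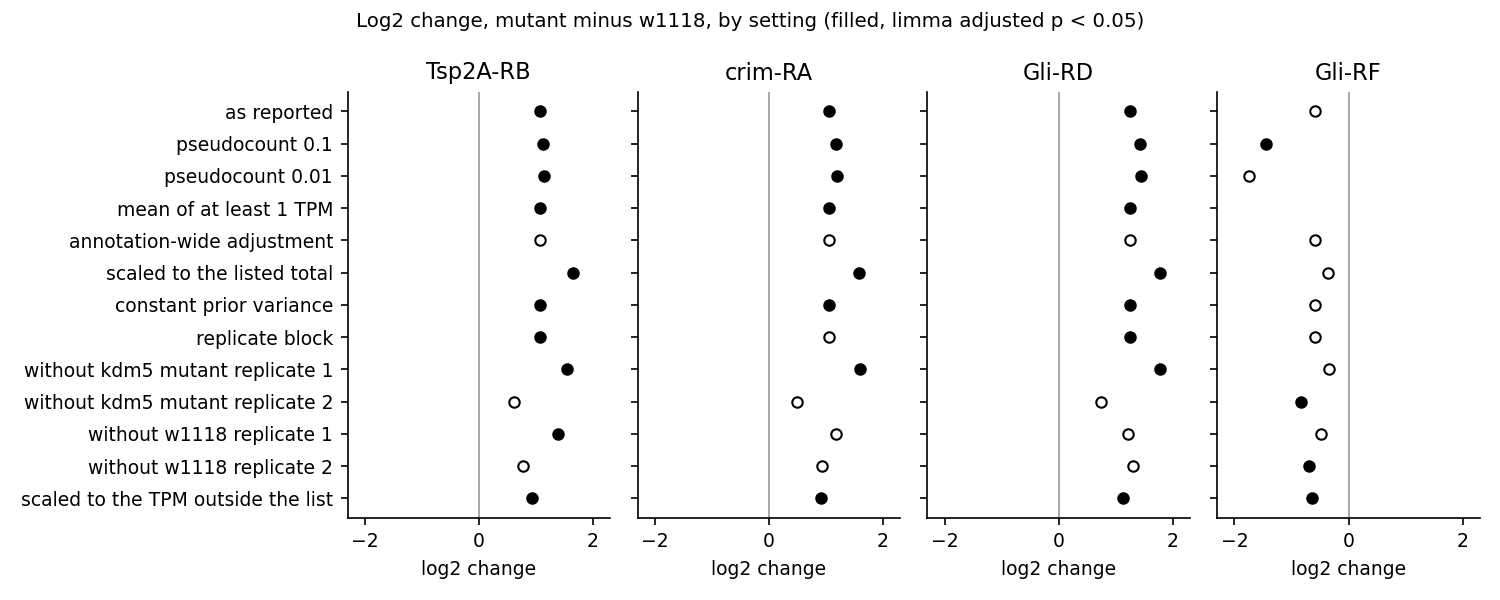
Log2 change on the log2(TPM + pseudocount) scale, mutant minus w1118, of Tsp2A-RB, crim-RA, Gli-RD and Gli-RF under each processing setting; filled points have limma adjusted p < 0.05. No direction changes, which only the rescalings of TPM could have brought about, since the groups do not overlap. Tsp2A-RB, crim-RA and Gli-RD lose the call without mutant replicate 2 (log2 changes 0.62, 0.50 and 0.73).

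The genes whose proteins build the smooth septate junction with Tsp2A were looked up in the list. Of the 4 genes Ssk, mesh, Tsp2A and hoka, 2 were listed. The mesh transcript in the table (FBtr0344066) was at 0.191 and 0.427 TPM in the mutant and at 3.61e-05 and 0.000631 TPM in w1118. Its log2 change was 0.38 ± 0.22 (SE, n = 2 per group; limma adjusted p = 0.104 among the listed transcripts), and no other mesh transcript was listed, so the level of mesh as a gene is unknown. Genes that are not listed were not analysed here, and nothing follows about them.

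Other junction and polarity genes, 41 besides Tsp2A, crim and Gli, had 4 listed transcripts of 4 genes, 3 higher and 1 lower in the mutant. Over the listed transcripts limma called 1 of them higher and 1 lower, against 53.7% and 23.4% of all listed transcripts. Annotation-wide 0 passed, against 30.7%. Their median log2 change was 0.48, and that of all listed transcripts 0.86. The one called higher was of aPKC (FBtr0303432), the atypical protein kinase C of the apical domain, at 2.23 and 5.60 TPM in the mutant and 1.39 and 1.41 TPM in w1118 (adjusted p = 0.0319 over the listed transcripts). The apical scaffold baz (FBtr0074388) reached 1.63 and 2.74 TPM in the mutant libraries against 1.24 and 0.980 TPM (adjusted p = 0.0999). Both were higher in mutant replicate 2 than in replicate 1, like the transcripts of Tsp2A, crim and Gli. This was usual, and held for 666 of the 802 listed transcripts that were higher in both mutant libraries and averaged at least 5 TPM. The one called lower was of Atpalpha (FBtr0089511), the sodium pump subunit of pleated septate junctions, at 24.3 and 35.3 TPM in the mutant libraries against 64.7 and 48.2 TPM in w1118 (adjusted p = 0.012). Atpalpha was the single listed gene among 15 of the pleated junction. None of 5 basolateral polarity genes and none of 7 adherens junction genes was listed. The list holds 1761 transcripts, against 35694 annotated outside transposable elements, so an unlisted transcript is usual, here and in the lists below.

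Relatives of the 3 proteins were also compared. Of 34 tetraspanin genes 3 were listed and each was higher in both mutant libraries, as were 58.8% of all listed transcripts. Tsp29Fa (FBtr0340261), a tetraspanin, rose 3.16-fold, from 66.2 and 62.8 TPM in w1118 to 195 and 213 TPM in the mutant, with a log2 change of 1.65 ± 0.24 (SE, n = 2 per group; limma adjusted p = 2.45e-05 among the listed transcripts and 0.000496 annotation-wide). Its mutant libraries were close to each other, unlike those of Tsp2A-RB. Tsp74F (FBtr0075154), another tetraspanin, reached 2.59 and 9.15 TPM in the mutant libraries against 1.03 and 1.39 TPM (annotation-wide adjusted p = 0.142). In the Ly6 family, which crim belongs to, 2 of 13 genes were listed. Besides crim this was CG9338 (FBtr0081428), at 11.4 and 13.8 TPM in the mutant and 5.19 and 4.60 TPM in the w1118 libraries (annotation-wide adjusted p = 0.173). Gli was the single listed gene of 7 in the list of cholinesterase-like proteins, which also holds the neuroligins.

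**Figure D5:**
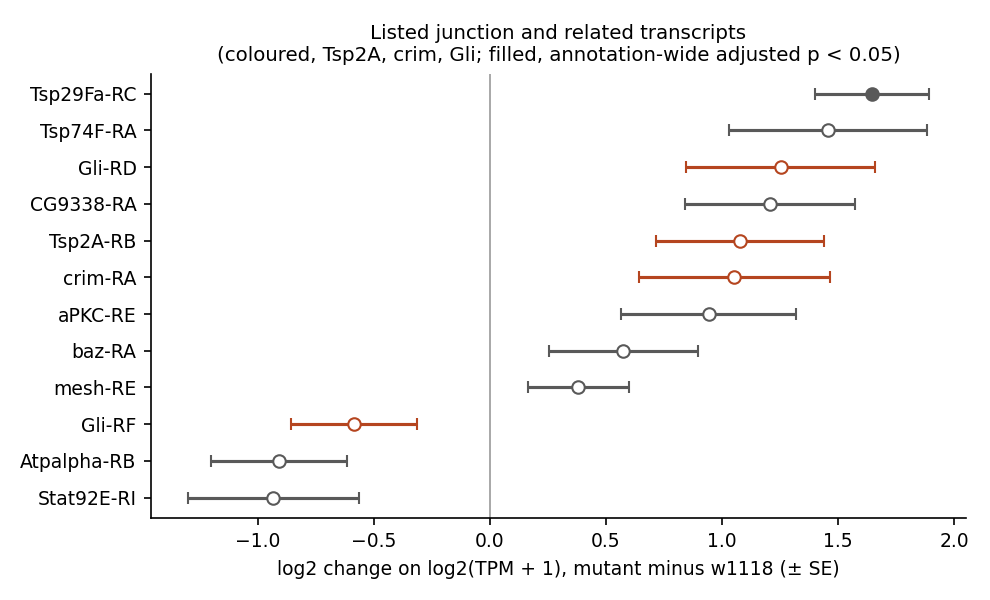
Log2 change on log2(TPM + 1), mutant minus w1118, with its SE (limma) for each listed transcript of the junction and related gene lists; colour marks Tsp2A, crim and Gli, and a filled point has annotation-wide adjusted p < 0.05. Tsp29Fa-RC (1.65) is the filled point, and Gli-RF, Atpalpha-RB and Stat92E-RI lie below 0.

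Loss of Tsp2A in the midgut is known to raise JAK-STAT and Yorkie signalling. The activity of these pathways was not tested, and of 11 genes in a list of their members and outputs, 1 was listed. This transcript of Stat92E (FBtr0334582), the transcription factor of the JAK-STAT pathway, was lower in the mutant, at 1.42 and 2.18 TPM against 5.38 and 3.39 TPM (limma adjusted p = 0.03 among the listed transcripts and 0.608 annotation-wide).

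The transcripts closest in pattern were sought among 1205 listed transcripts of other genes with a mean of at least 5 TPM, by the Euclidean distance of mean-centred log2(TPM + 1) over the 4 libraries. For Tsp2A-RB these were Pfk (phosphofructokinase; distance 0.0713), Eno (enolase; 0.0823) and CG8892 (0.136). For crim-RA they were 2 Hex-A transcripts (hexokinase; 0.0479) with the same TPM in every library, FBtr0071361 and FBtr0071362, and Uba2 (0.0807), a subunit of the SUMO-activating enzyme. For Gli-RD they were RpS26 (0.110), a ribosomal protein, thoc6 (0.161) and Mettl4 (0.187), and for Gli-RF OtopLb (0.052), Idh3a (0.0616) and CG4301 (0.0746). At the low level of Gli-RF the pseudocount flattens its pattern, so these are near on this scale and not in fold change. OtopLb, at 14.6 and 21.4 TPM in the mutant and 30.3 and 24.8 TPM in w1118, had a smaller relative difference than Gli-RF. The distance between Tsp2A-RB and crim-RA was 0.285, with 25 of the 1205 closer to Tsp2A-RB than crim-RA was. Seen from crim-RA, 75 were closer than Tsp2A-RB. Gli-RD was 0.533 from Tsp2A-RB and 0.319 from crim-RA, and 242 of the 1205 were closer to Tsp2A-RB than Gli-RD was. Seen from Gli-RD, 263 were closer than Tsp2A-RB and 48 closer than crim-RA. Seen from crim-RA, 86 were closer than Gli-RD.

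Markers of other tissues that carry septate junctions were also compared. In bulk RNA, fewer cells of a type and less RNA per cell cannot be told apart. Malpighian tubules, which have smooth septate junctions, had 3 of 6 marker genes listed, with a summed level of 129 and 143 TPM in the mutant and 50.6 and 57.3 TPM in w1118. Of their transcripts Oatp58Db and ZnT35C rose and Oatp58Dc was higher (annotation-wide adjusted p = 0.119). All 3 tubule transcripts were higher in both mutant libraries, as were 58.8% of all listed transcripts. Annotation-wide 2 of the 3 passed as higher, against 22.0% of all listed transcripts. Their sum is of transcripts listed for their p-value on this comparison and leaves out the unlisted tubule markers. Trachea, where crim is best known, had 0 of 6 marker genes listed. Glia and neurons had 1 of 6, Syt1, at 1.63 and 1.76 TPM in the mutant libraries against 0.846 and 0.812 TPM. For the hindgut and foregut, 1 of 5 was listed, a bowl transcript (FBtr0307028) that rose to 1.40 and 1.73 TPM and was at 0 and 5.88e-05 TPM in w1118. No other bowl transcript was listed, so the level of bowl as a gene is unknown.

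Among cells of the gut itself, the 3 listed enterocyte transcripts of 5 marker genes went both ways. Myo61F (FBtr0072672) rose to 22.4 and 28.7 TPM from 8.40 and 8.27 TPM, nub was at 1.16 and 2.14 against 0.502 and 0.551 TPM, and Myo31DF was at 31.0 and 40.0 against 60.0 and 50.4 TPM. The enterocyte transcripts summed to 54.6 and 70.9 TPM in the mutant and 68.9 and 59.2 TPM in w1118, so these sums overlapped between the genotypes. The 6 listed transcripts of enteroendocrine peptides were lower in both mutant libraries, as were 35.9% of all listed transcripts. They summed to 18.7 and 26.4 TPM in the mutant and 49.2 and 39.5 TPM in w1118. Annotation-wide 0 of them passed, while 8.69% of all listed transcripts passed as lower. The stem cell marker esg was at 0.480 and 0.873 against 2.02 and 1.24 TPM (annotation-wide adjusted p = 1). The 2 listed visceral muscle genes of 7 summed to 96.8 and 136 TPM in the mutant and 233 and 152 TPM in w1118, nearly all of it Act57B. The other, an Mhc transcript (FBtr0307495), was higher in the mutant, at 0.263 and 0.822 TPM against 0 and 1.01e-08 TPM (annotation-wide adjusted p = 0.607). The part of these cell type markers in the Tsp2A, crim and Gli values was not tested.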

How the data were processed

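RNA from 4 intestine samples was compared, 2 of a kdm5 mutant and 2 of w1118. The authors' deposited table held, per the file headers, TPM per library and 1 p-value for each of 1761 transcripts. Cufflinks and DESeq appear in the submitters' processing notes, without their roles or versions. No source used here gives the aligner, build, gene models or use of strand, or says whether the deposited p-values were adjusted. TPM keeps no depth, so the errors given are SDs over 2 libraries or SEs from limma.

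Transcript identifiers were matched to Ensembl release 115 (BDGP6.54), where 1741 of 1761 matched. Because the file held TPM, limma 3.58.1 (limma-trend, R 4.3.3) was run on log2(TPM + 1) over the 1761 transcripts, with 4 libraries and no replicate block, and Benjamini-Hochberg adjustment. The annotation-wide adjustment counts 35694 tests. The limma step was tried on simulated data with independent noise and no selection on p-values. That trial therefore says nothing about calls in a selected list.

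The members and gene lists (167 genes, 6 symbols unmatched) were chosen with earlier results of these data known. The named transcripts were those of the 3 genes, the lists and Kdm5, and the 3 nearest in pattern to each. MTPAP was named after its position and values were seen. Alternatives covered the pseudocount, a filter on low values, scaling, the prior variance, the adjustment, a replicate block and leaving out each library.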

Additional observations from a re-analysis of the deposited data

How the results depend on the processing

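Every setting in which they were fitted kept the direction of Tsp2A-RB, crim-RA, Gli-RD and Gli-RF. Since their groups did not overlap, only a rescaling of TPM could have changed it, so the other settings do not test the direction. Leaving out each library in turn moved the log2 change of Tsp2A-RB from 0.62 to 1.54, of crim-RA from 0.50 to 1.60, of Gli-RD from 0.73 to 1.77 and of Gli-RF from -0.83 to -0.34, the share difference of Gli-RF from -21.2 to -15.0 percentage points, and the number of transcripts limma called over the table from 580 to 1239 (1358 with all libraries). These fits have fewer samples, and the lone library of a genotype is assumed to vary like the other group. Annotation-wide, 540 transcripts passed, and Tsp2A-RB (1.08), crim-RA (1.05) and Gli-RD (1.25) did not, since more tests were counted. Gli-RF was called at -1.44 with a pseudocount of 0.1 and at -0.64 with TPM scaled to the part outside the list, and not with a pseudocount of 0.01 (-1.75), TPM scaled to the listed total (-0.36) or a constant prior variance (-0.58). The cause was not tested. It has no value under the filter of at least 1 mean TPM, which it did not pass. The replicate numbers do not establish a pairing, as the deviations of same-numbered libraries correlated at -0.188 over the 1761 transcripts. The replicate block left 933 calls, kept Tsp2A-RB and Gli-RD and ended the call of crim-RA (1.05), and a crossed replicate block, added after seeing the data, gave 1666 calls. The unknown depth behind TPM leaves the counting error of Gli-RF, at 0.145 to 1.20 TPM, without an estimate.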
